A study of Homo sapiens with 4 samples.

Results

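The telomerase and shelterin genes were examined in H9, an established line of human embryonic stem cells. The 10 genes were chosen by symbol from the complexes that extend and protect chromosome ends, without use of their values. Earlier results of these data were known when they were chosen. All 10 were found among the 60671 genes of the deposited table. The table held 4 RNA-seq libraries of poly(A)-selected RNA in 2 groups of 2. The control group had the genotype control, which the study describes as mock cells. The other group, named KO+OE here, had the genotype CFIm25 KO+ 3Flag-CFIm25 overexpression, and the series title writes the same edit as a knockdown. Both groups were grown in mTeSR medium and labelled as having no treatment. CFIm25, encoded by NUDT21, is a subunit of the factor that helps to choose the poly(A) site of an mRNA. By the study's methods the re-expressing cells came from a single edited clone, in which a shortened protein remained, and the Flag-tagged protein was driven by the EF1 promoter of a lentiviral vector. Cells with the edit but without re-expression were not analysed here, so the comparison asks how far the re-expressing line stood from control cells.

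Telomerase adds TTAGGG repeats to chromosome ends. TERT is its catalytic subunit, TERC is its RNA template, and DKC1, NHP2, NOP10 and GAR1 form the box H/ACA protein core that holds TERC and also the RNAs that guide pseudouridylation of ribosomal RNA. Shelterin coats the repeats: TERF1 and TERF2 bind the double-stranded repeat, POT1 binds the single-stranded end, ACD (TPP1) joins POT1 to TINF2 and recruits telomerase, and TINF2 bridges the parts. Human embryonic stem cells keep telomerase active, whereas most somatic cells silence TERT.

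The values were read as TPM, a level per length of transcript that is scaled to a common total in each library. The columns summed to between 986853 and 987078, with 12179 to 12332 genes at 1 TPM or more. TPM carries no read counts, so the depth is unknown. The precision comes from the spread between replicates, of each gene and in part of other genes at a like level. The labels do not say that replicates were separate cultures, so the p-values measure only the spread between these samples. The targeted gene NUDT21 lay between 152.20 and 162.09 TPM in all libraries, with overlap of the groups, so its RNA does not check the labels. The 10 stem cell markers were all detected, with POU5F1 at 2163.82 to 2212.38 TPM and LIN28A at 517.40 to 527.87 TPM. SOX2 was at 18.19 to 19.36 TPM, NANOG at 15.85 to 19.89 TPM and USP44, the lowest, at 2.79 to 4.18 TPM. The summed level of the 10 markers was 3434 to 3465 TPM, most of it from POU5F1. All 5 ectoderm and all 5 mesoderm markers stayed under 1 TPM. Of the 5 endoderm markers only GATA6 exceeded 1 TPM, at 4.35 to 8.39 TPM, and SOX17 was listed at 0. The fibroblast list summed to 66.4 to 69.3 TPM, nearly all of it COL1A1 and PDGFRB, while COL3A1, DCN and LUM were at 0.08 TPM or less.

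The start regions of the members were taken from RefSeq on GRCh38.p14 and searched for short motifs in the 250 bases before each start. Of the 10 genes 8 had an entry, in 10 windows (GAR1 and TINF2 have 2 starts each), and TERF1 and TERF2 had none. The windows held 48.4% to 78.8% G and C, against a median of 58.0% over all 35116 windows. The most GC-rich was that of TERT. A GC box (GGGCGG or its reverse complement CCGCCC) stood in 8 of the 10 windows, from 7 genes, and in 42.6% of all windows. No member window held a TATA box (TATAAA or TTTATA), which 10.7% of all windows held. A CCAAT box (CCAAT or ATTGG) stood in 4 of the 10 windows, from 3 genes, against 32.0% of all. The windows of TINF2 overlap, so a match there can count in both. These are matches of letters and not shown to be sites.

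The E-box CACGTG, a palindrome known as a binding sequence of MYC and MAX, was found before TERT and NOP10 and in 6.34% of all windows. These stretches are shown because TERT and NOP10 are the telomerase genes that carry it, with the E-box in capitals and each sequence written 5′ to 3′ along the minus strand, on which both genes lie. The TERT stretch lies at chr5:1295206-1295251, with the E-box 163 bases before the start. The NOP10 stretches lie at chr15:34343281-34343326 and chr15:34343137-34343167, with the E-box 170 and 11 bases before the start.
TERT: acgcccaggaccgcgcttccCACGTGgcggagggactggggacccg
NOP10, distal: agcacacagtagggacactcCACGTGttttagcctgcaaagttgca
NOP10, proximal: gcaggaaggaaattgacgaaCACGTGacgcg

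The hexamer of the telomere itself, TTAGGG or its reverse complement CCCTAA, was found before GAR1 and NHP2 and in 7.94% of all windows. It is shown in capitals because it is the repeat that the shelterin proteins TERF1 and TERF2 bind in tandem arrays. The GAR1 stretches lie on the plus strand at chr4:109815368-109815413 and chr4:109815421-109815466, and the NHP2 stretch lies on the minus strand at chr5:178154040-178154085. In the distal GAR1 stretch and in the NHP2 stretch the repeat overlaps a GC box.
GAR1, distal: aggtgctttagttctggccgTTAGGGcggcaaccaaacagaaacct
GAR1, proximal: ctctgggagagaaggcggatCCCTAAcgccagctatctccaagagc
NHP2: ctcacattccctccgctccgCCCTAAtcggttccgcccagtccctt

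TERT was expressed in every library. TERT (ENSG00000164362) is a minus-strand gene at chr5:1253167-1295068 on GRCh38, with 16 exons in its canonical transcript. Its level was 7.38 and 8.46 TPM in the control libraries and 7.30 and 8.03 TPM in the KO+OE libraries. The groups overlapped, and the lowest and the highest library differed by a factor of 1.16. About as many genes lay below TERT as above it, since 50.1% of the 12319 genes tested, those whose 4 libraries averaged 1 TPM or more, had a lower mean. The log2 fold change of TPM + 1 was -0.04 (95% interval -0.33 to 0.25), with an adjusted p = 0.989 from limma. The interval corresponds to 0.796-fold to 1.19-fold. In bulk RNA a lower value can come from fewer cells that express a gene or from less RNA per cell, which cannot be told apart. A gene-level value does not separate the full-length form of TERT from its spliced forms without reverse transcriptase activity.

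TERC, the RNA template, was listed at 0 in all 4 libraries. Mature TERC carries no long poly(A) tail, and the libraries were made from poly(A)-selected RNA, so no level of TERC is read from them.

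The box H/ACA proteins held the highest and some of the middle levels. On GRCh38 NHP2 lies at chr5:178149463-178153885, NOP10 at chr15:34341719-34343136, DKC1 at chrX:154762864-154777689 and GAR1 at chr4:109815510-109824737. NHP2, a small subunit of the core, was at 497.68 and 512.26 TPM (control) against 509.63 and 524.17 TPM (KO+OE). It exceeded 98.3% of the genes tested. NOP10, the smallest subunit, was at 249.31 and 275.62 TPM (control) against 250.08 and 250.73 TPM (KO+OE). Control replicate 2 stood above the other libraries for NOP10. DKC1, the pseudouridine synthase called dyskerin, was at 32.56 and 32.73 TPM (control) against 32.62 and 31.49 TPM (KO+OE), the narrowest range of the 10 genes (a factor of 1.04). GAR1, the subunit that completes the mature particle, was at 13.05 and 14.87 TPM (control) against 12.76 and 16.05 TPM (KO+OE), so that the KO+OE libraries enclosed the control libraries.

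The RNA levels of these 4 proteins, which are present in equal number in the particle, were far apart. Within each library NHP2 was 32.7 to 39.9 times as high as GAR1 and 15.3 to 16.6 times as high as DKC1. NHP2 and NOP10 together gave 94.2% to 94.4% of the summed level of the 4 genes. DKC1 was 3.87 to 4.47 times as high as TERT. These ratios rest on the gene length by which the authors divided, and put from the whole exon length on that of the canonical transcript the means gave 8.02 for NHP2 over DKC1, 10.6 for DKC1 over TERT and 35.2 for NHP2 over GAR1. The sum of the 4 genes was 793 and 835 TPM in control and 805 and 822 TPM in KO+OE, so the KO+OE sums fell between the control sums. NHP2 and NOP10 also have the shortest canonical transcripts of the 10 genes, at 780 and 507 bases.

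**Figure D1:**
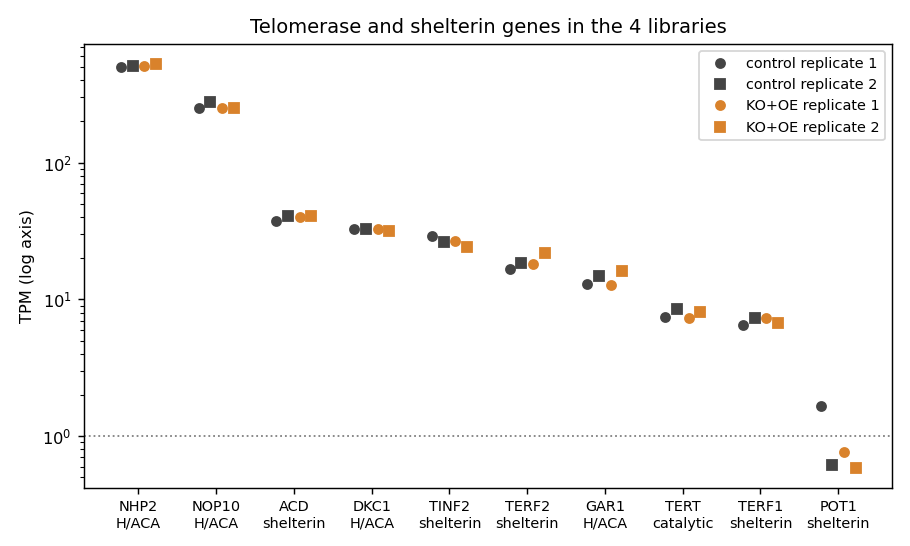
TPM of each gene (log axis) in the 4 libraries, ordered by mean level, with control libraries in grey, KO+OE libraries in orange, circles for replicate 1 and squares for replicate 2. The points of neighbouring genes do not overlap, from NHP2 at 497.68 to 524.17 TPM down to POT1 at 0.59 to 1.66 TPM, and the dotted line marks 1 TPM.

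Among the shelterin genes ACD was highest and POT1 lowest. On GRCh38 ACD lies at chr16:67657512-67660260, TERF2 at chr16:69355567-69386007, TINF2 at chr14:24239640-24242674 and POT1 at chr7:124822386-124929825, and TERF1 is a gene of chromosome 8. ACD (TPP1) was at 37.36 and 40.66 TPM (control) against 39.92 and 40.98 TPM (KO+OE). TINF2 was at 29.03 and 26.13 TPM (control) against 26.53 and 24.07 TPM (KO+OE). Only the lower KO+OE library of TINF2 lay outside the control range. TERF2 was at 16.68 and 18.34 TPM (control) against 18.06 and 21.84 TPM (KO+OE), with KO+OE replicate 2 above the others. TERF1 was at 6.46 and 7.26 TPM (control) against 7.27 and 6.73 TPM (KO+OE). The ratio of TERF2 to TERF1, the double-strand binding proteins, was 2.58 and 2.53 in control and 2.48 and 3.25 in KO+OE, and 1.08 for the means on the canonical length. TERF2IP (RAP1), the sixth shelterin subunit and no member of the 10 genes, binds TERF2 and was at 6.64 and 8.16 TPM (control) against 6.63 and 6.82 TPM (KO+OE).

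POT1 stood apart by its low level and its spread. It was listed at 1.66 and 0.62 TPM (control) against 0.77 and 0.59 TPM (KO+OE), a factor of 2.81 between the libraries. Control replicate 1 alone exceeded 1 TPM, and the other control library lay between the KO+OE libraries. Its mean of 0.910 TPM was under the minimum of 1 TPM for the test, so 9 of the 10 genes were tested. Without that minimum its log2 fold change was -0.31 with an adjusted p = 0.876 from limma. ACD, whose protein pairs with POT1, was 22.5 times as high as POT1 in control replicate 1 and 51.8 to 69.5 times as high in the other libraries. The antisense gene POT1-AS1 shares 111 exonic bases with POT1 in GENCODE. POT1-AS1 was at 28.61 and 27.84 TPM (control) against 25.45 and 27.85 TPM (KO+OE), or 17.2 to 47.2 times the level of POT1. Whether the counting used strand is not given in the sources used here, so reads of the shared bases cannot be assigned.

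The same limit touched 2 other members more. NHP2 shares 414 exonic bases, 28% of its exons, with RMND5B on the opposite strand, which was at 40.81 to 45.49 TPM. TINF2 shares 957 exonic bases, 21.9% of its exons, with GMPR2 on the opposite strand, which was at 81.88 and 79.88 TPM (control) against 89.62 and 87.85 TPM (KO+OE). The ratio of GMPR2 to TINF2 was 2.82 and 3.06 in control and 3.38 and 3.65 in KO+OE, and the part of the shared bases in these values was not tested. ACD and TERT share less than 2% of their exonic bases with genes on the opposite strand. DKC1 holds the small nucleolar RNAs SNORA36A and SNORA56 within its gene, both listed at 0 in all 4 libraries. The 7 TERF1 pseudogenes and 2 NHP2 pseudogenes of the table were at 0.24 TPM or less in each library, and 2 of the 9 were above 0 in any library.

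Placed in order, the levels ran from NHP2 through NOP10, ACD, DKC1, TINF2, TERF2, GAR1, TERT and TERF1 to POT1. Across the 4 libraries the range of no gene overlapped that of its neighbour in this order. The closest neighbours were TERT and TERF1, at 7.30 to 8.46 and 6.46 to 7.27 TPM, a ratio of means of 1.12. NHP2 was 300 to 888 times as high as POT1. This order is a description and rests on the gene length by which the authors divided, which the sources used here do not give. The exons of all transcripts together are 1.47 times as long as the canonical transcript for TERT and 4.72 times for TERF1. Put on the canonical length, as if the whole exon length had been used, 5 of the 10 places stayed, TERF1 rose above GAR1 and TERT, and DKC1 rose above ACD.

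The levels were also set beside the base composition and length of the transcripts, as a description. Across the 10 genes the Spearman correlation of mean TPM was 0.47 with the GC content of the canonical transcript and -0.82 with its length. Across the 53 members and pathway genes above 0, which share libraries and are not independent, it was 0.67 and -0.72. TPM is itself divided by a gene length, so a negative correlation with length can be in part built into the measure. POT1 and TERF1 had the lowest GC content of the 10 genes, 36.6% and 38.1%. TERT had the highest GC content, 65.7%, and also the longest canonical transcript, 4039 bases, with the third lowest level. The 8 pathway genes and members under 40% G and C had a median of 0.948 TPM, and the 21 genes at 50% or more had a median of 19.1 TPM. Among the 10 members alone the medians did not rise in step. The 2 members under 40% G and C had a median of 3.92 TPM. The 3 members from 40% to 50% had 32.4 TPM, and the 5 at 50% or more had 26.4 TPM. The part of composition and length in the low level of POT1 was not tested.

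**Figure D2:**
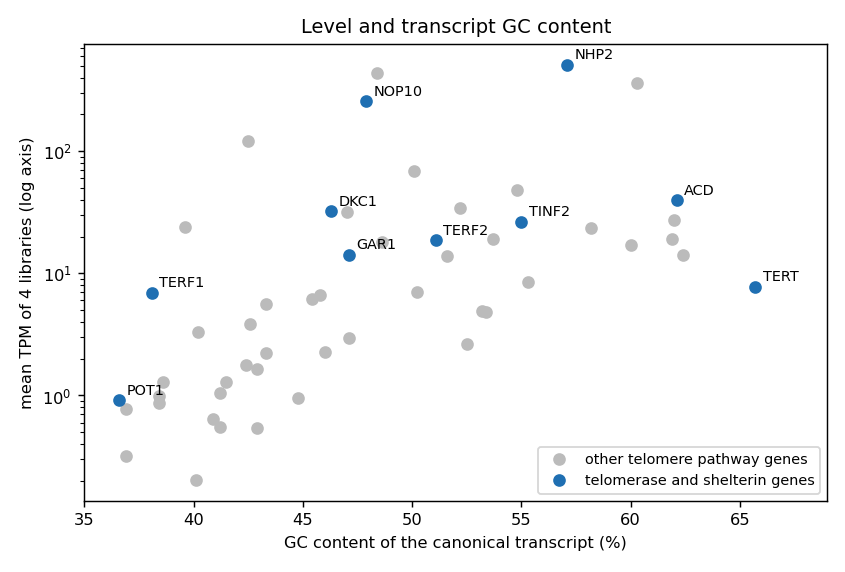
Mean TPM of the 4 libraries (log axis) against the GC content of the canonical transcript in percent, for the 10 telomerase and shelterin genes in blue and the 43 other telomere pathway genes above 0 in grey. POT1 at 36.6% lies at the lower left, and TERT at 65.7% lies below the other GC-rich members.

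The groups were then compared for all members in 1 fit over the 12319 genes tested. None of the 9 members tested passed an adjusted p of 0.05, with a smallest adjusted p = 0.938 in limma, where 1 gene (AC125388.1) or 0.00812% of all genes passed. At an unadjusted p under 0.05 there were again 0 of 9 members, against 5.33% of all genes. The libraries of the groups did not overlap for 0 of 9 members, against 34.1% of all genes. The larger of the 2 replicate differences, in control or in KO+OE, was wider than the difference between the groups for 9 of 9 members, and for 77.7% of all genes. For the members this follows from the overlap of their groups and is no separate result. The smaller replicate difference was not always wider, as for DKC1, with log2 differences of 0.01 between the control libraries and 0.03 between the groups.

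The log2 fold changes of the 9 members ran from -0.12 for TINF2 to 0.17 for TERF2. In KO+OE 5 were higher and 4 lower, with a median of 0.027 against -0.012 over all genes tested. The interval of TERF2, -0.11 to 0.46, was the one that reached farthest up, and that of TINF2, -0.34 to 0.10, the one that reached farthest down. All 9 intervals lay within 2-fold in either direction, as they did for 92.6% of all genes tested. The value of TERF2 was 0.04 with KO+OE replicate 2 left out and 0.30 with KO+OE replicate 1 left out. The intervals were narrowest for NHP2, from 0.968-fold to 1.08-fold, and for DKC1 they ran from 0.891-fold to 1.08-fold and for NOP10 from 0.867-fold to 1.05-fold. GAR1 and TERF1, at lower levels, had intervals of 0.809-fold to 1.30-fold and 0.838-fold to 1.24-fold. These intervals give the precision of each estimate with 2 libraries a group and are not a limit of detection. Their width rests in part on the replicate spread of other genes at a like level. An interval that left out 0 did not bring an adjusted p under 0.05 for POLA2 and CTC1, genes of the pathway lists. Each had an adjusted p = 0.928 from limma. The smallest difference that the fit could have called was not tested.

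**Figure D3:**
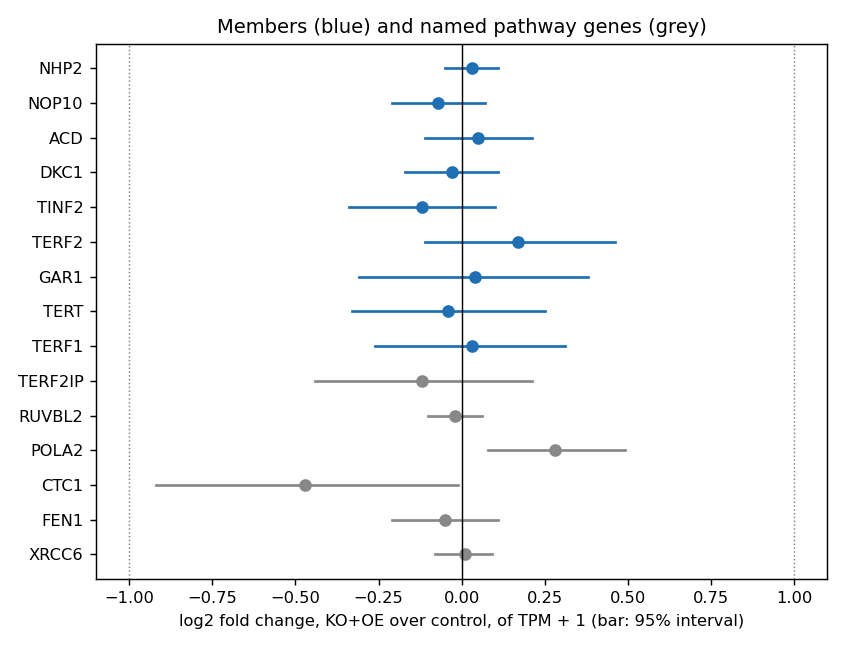
Log2 fold change of TPM + 1 in KO+OE over control for the 9 members tested (blue) and 6 named genes of the pathway lists (grey), with bars for the 95% interval of limma and dotted lines at 2-fold. All bars of the members cross 0 and end between -0.34 and 0.46. Those of POLA2 and CTC1 do not cross 0, which follows from their being named for an unadjusted p under 0.05 in limma.

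**Figure D4:**
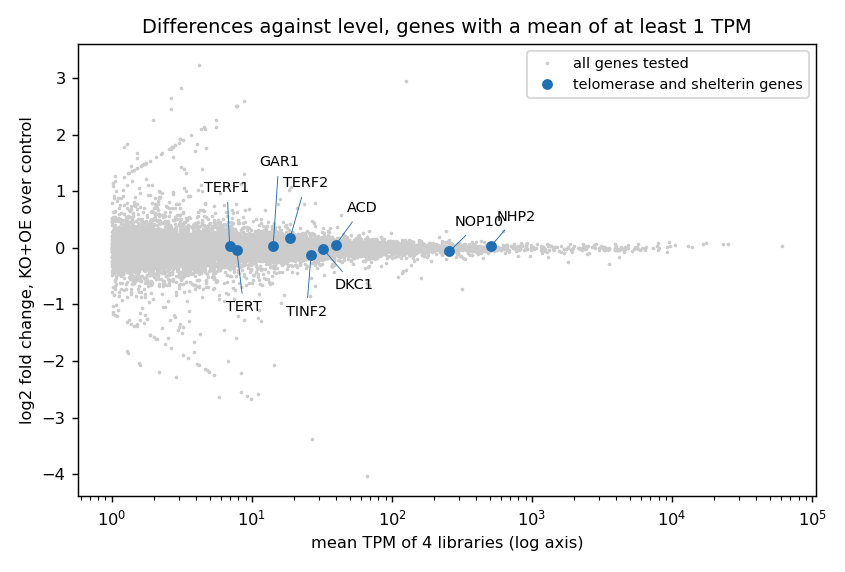
Log2 fold change of KO+OE over control against mean TPM (log axis) for the 12319 genes tested (grey) and the 9 members tested (blue). The members lie between -0.12 and 0.17, inside the band of the other genes at their level.

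Other genes of telomere biology were compared in 4 lists. TERF2IP had a log2 fold change of -0.12 (95% interval -0.44 to 0.21). Of the 13 genes for the telomerase RNA and for H/ACA assembly 10 were tested, 4 higher and 6 lower in KO+OE, with a median of -0.023. Their log2 fold changes ran from -0.09 to 0.19, and 0 passed at an adjusted or an unadjusted p of 0.05. RUVBL2, an ATPase of the chaperone complex that builds H/ACA particles, had the highest level of this list, at 367.85 and 361.91 TPM (control) against 356.15 and 364.75 TPM (KO+OE). Of the 16 telomerase regulators and telomere-bound factors 11 were tested, 9 higher and 2 lower, with a median of 0.054, and 0 passed at either p. XRCC6, a subunit of the Ku end-binding protein, was the highest at 434.10 to 449.44 TPM, and NBN, of the MRE11 nuclease complex, was the lowest at 0.21 and 0.21 TPM in control and 0.32 and 0.54 TPM in KO+OE.

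Of the 14 genes of the CST complex and telomere replication 12 were tested, 4 higher and 8 lower, with a median of -0.045 and 0 past an adjusted p of 0.05. Over the 4 lists together 2 of 34 genes tested, or 5.88%, had an unadjusted p under 0.05, close to the 5.33% of all genes, and both were in this list. The groups did not overlap for 7 of its 12 genes, for 2 of 10 of the H/ACA list, for 3 of 11 of the regulators and for 0 of 1 with TERF2IP, against 34.1% of all genes. POLA2, a subunit of the DNA polymerase alpha-primase that fills in the C-rich strand, was at 16.47 and 18.03 TPM (control) against 21.99 and 20.42 TPM (KO+OE). Both KO+OE libraries lay above both control libraries, with a log2 fold change of 0.28 (95% interval 0.08 to 0.49) and an adjusted p = 0.928 from limma. CTC1, the large CST subunit that brings this polymerase to the telomere, was at 5.45 and 5.97 TPM (control) against 3.18 and 4.62 TPM (KO+OE). Both KO+OE libraries lay below both control libraries, with a log2 fold change of -0.47 (95% interval -0.92 to -0.01) and an adjusted p = 0.928 from limma. Leaving out KO+OE replicate 2 gave -0.68 for CTC1, and leaving out KO+OE replicate 1 gave -0.26. Its unadjusted p of 0.046 in limma rose to between 0.0519 and 0.0654 under 5 of the other settings, and its log2 fold change was -0.27 with a pseudocount of 5. The highest gene of the list was FEN1, a flap nuclease, at 32.77 to 35.77 TPM, and the lowest was POLA1, the catalytic polymerase subunit, at 0.48 to 0.65 TPM.

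PRR20G and TRAFD1 were among the genes whose values moved most like those of TERT across the 4 libraries, with Pearson correlations of 0.9995 and 0.9988. The 4 points share their libraries, and 304 of 12318 genes, or 2.47%, reached 0.95 with TERT. None of the other 8 members tested did, and the closest were NOP10 and GAR1 at 0.82 each.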

How the data were processed

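RNA-seq was analysed in 4 libraries of H9 cells, 2 control and 2 KO+OE, with groups and replicate numbers from the sample titles. The authors deposited a table of TPM per gene, rounded to 2 decimals, whose header names no unit. TPM was read from the decimals and the nearly equal column sums. The submitters' processing notes name hg38, HISAT2, featureCounts of Subread and DESeq2, and versions, annotation and gene lengths are not given in the sources used here. There were no counts, so depth is unknown and no count test was run. The columns headed f were taken as KO+OE, as in the study's supplement.

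Genes averaging 1 TPM or more over the 4 libraries were tested on log2(TPM + 1) with limma 3.58.1 (lmFit, eBayes with a mean-dependent prior, two-sided) in R 4.3.3, and p-values were adjusted by Benjamini-Hochberg over all genes tested. A fold change on this scale understates that of low genes. The step was tested on simulated data with changes far larger than those of the members. These were placed only in genes at higher levels than TERT and TERF1. That test therefore does not bear on small differences. Members, lists and tests were chosen with earlier results of these data known. Pathway genes were named for an unadjusted p under 0.05 or the highest or lowest mean of a list. The genes most like TERT were the 3 with the highest Pearson correlation, of which 1 is not reported here. Positions and start regions are from RefSeq on GRCh38.p14, and exon overlap, length and GC content are from GENCODE release 44 on GRCh37, matched by Ensembl identifier. The alternatives were a filter at 5 TPM or none, pseudocounts of 0.1 and 5, a replicate block, median-ratio, quantile and mitochondria-free scaling, a constant prior, leaving out each library, and, added after the data were seen, another gene length. Tables were handled in Python 3.11.15 with pandas 2.3.3, and figures drawn with matplotlib 3.10.9.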

Additional observations from a re-analysis of the deposited data

How the results depend on the processing

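The count of 0 members past an adjusted p of 0.05 held in the 9 alternatives with all 4 libraries, the median log2 fold change of the members ran from 0.000 without a filter to 0.039 without mitochondrial genes, and none of the 9 members tested changed direction there. The smallest adjusted p of any member over these 9 alternatives was 0.873 in limma. Same-numbered libraries did not deviate together (correlation of deviations -0.0485), and with the replicate number as a block 0 members and 0 genes of all passed. The count over all genes went from 1 to 0 with quantile normalization, with a pseudocount of 0.1 or 5, and with the filter at 5 TPM or dropped. The cause was not tested.

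Leaving out each library in turn assumes that the lone library of a group varies like the others, so effect sizes are given for these fits. The median of the members was lowest, -0.046, with control replicate 1 left out and highest, 0.054, with control replicate 2 left out. The log2 fold change took either sign for 5 members, from -0.128 to 0.047 for TERT, from -0.138 to 0.006 for NOP10, from -0.118 to 0.191 for GAR1, from -0.047 to 0.10 for TERF1 and from -0.007 to 0.112 for ACD. It did so from -0.246 to 0.016 for TERF2IP, from -0.012 to 0.066 for NUDT21 and from -0.019 to 0.031 for XRCC6. Of the 10 places in the order of levels, 5 stayed with the canonical transcript length. Depth could not be assessed, since TPM holds no counts.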
